A study of Rattus norvegicus with 18 samples.

Results

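The sites described here are stretches of rat mRNA that carried an m6A peak in all 3 libraries of the SYD group and that at least 1 of the 6 Model and Control libraries lacked. They were found by joining the peaks of 9 lists wherever peaks overlapped by at least 1 base, which gave 9022 sites, and 356 of these met the rule (3.95%). They lay in 331 of the 4846 genes with any site (6.83%). These 356 member sites were selected from the measured peak calls themselves, so their presence in the SYD lists and their absence elsewhere describe the selection and are not findings. Their scores, lengths, genes and gene groups are set beside the same values for the 917 sites in all 9 lists and for all sites, without tests.

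The data are methylated RNA immunoprecipitation sequencing (MeRIP-seq) of H9c2 cells, which were established from the heart of a rat embryo and keep features of muscle without beating. The SYD group was given SYD (Shen-Yuan-Dan capsule, a Chinese medicine) with 50 μM phenylephrine (PE), which stimulates α1-adrenergic receptors and enlarges heart muscle cells, and is named SYD-H at 2 mg/mL in the sample labels, while the text of the series gives 1 mg/mL. The Model group received 50 μM PE alone and the Control group was not treated. Both treatments ran for 24 h, and each group had 3 replicates of 1 cell line, each with an immunoprecipitated (IP) and an input library.

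N6-methyladenosine (m6A) is a methyl mark placed on mRNA by a complex built around METTL3 and METTL14, removed by the demethylases FTO and ALKBH5 and read by proteins such as the YTH family, which affect the decay and translation of the marked RNA. In heart muscle cells the mark has been linked to hypertrophic growth. In MeRIP-seq an antibody against m6A captures RNA fragments, and a peak is a stretch where captured fragments exceed the input. A list that lacks a peak shows that none passed the caller's threshold there, which is not the same as RNA without m6A, and since the lists hold no RNA levels, less m6A on a transcript and less of the transcript cannot be told apart.

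Each peak has a score, the negative log10 p multiplied by 10, and a fold enrichment, the ratio of IP to input. Scores depend on library depth, which the lists do not give, so scores of different lists are not on one scale. No list held a score under 20, and scores of 3100 or more occurred in each list (13 to 53 peaks). The deposited FDR was 100% for every peak, so it gives no separate guard against false peaks. The lists held 2508 to 2786 peaks in the SYD group, 2883 to 4476 in the Model group and 3629 to 5556 in the Control group. Median fold enrichment was 21.4 to 30.9 in SYD lists, 9.71 to 11.3 in Model lists and 7.28 to 10.4 in Control lists. Shorter lists with higher folds thus went with the SYD libraries, and their part in which sites met the rule was not tested. Of the 14 muscle markers, 6 had a site (Mef2a, Mef2c, Mef2d, Nkx2-5, Gata4 and Tnnt2), whereas Actc1, Actn2, Des, Myh6, Myh7, Myog, Tnnt1 and Ttn had none. Of the 7 fibroblast markers, Col3a1 had a site, and none of the 4 endothelial or 5 leukocyte markers did. A gene with no peak may still be expressed.

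Most member sites were missing from a single list. In all, 217 of the 356 (61.0%) were missing from 1 of the 6 Model and Control lists, 70 from 2, 44 from 3, 19 from 4 and 6 from 5. No site was present in the 3 SYD lists alone. The 6 sites found in 1 other list lay in LOC100911319, Ski, Impad1, Rin3, Numa1 and Wdfy3. Thus 28.0% of the 1273 sites in every SYD list were not shared by all the others. Taken for the Model lists the same rule gave 899 sites, and for the Control lists 1280, against 356 here. Each count stands beside the same 917 sites in all 9 lists. Leaving out 1 SYD library and asking only for the remaining pair raised the number of member sites to between 567 and 629.

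**Figure D1:**
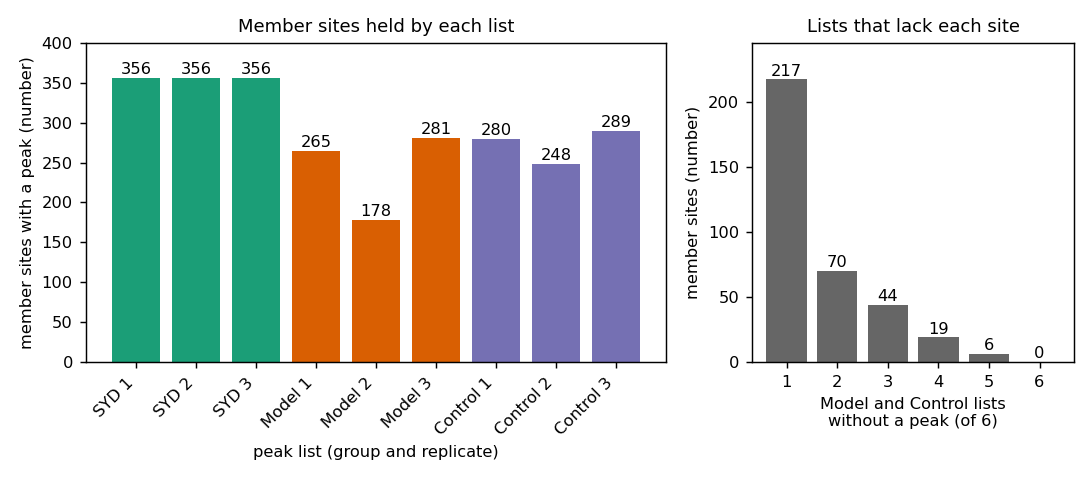
The left bars give the number of the 356 member sites with a peak in each list, by group and replicate, and the right bars give how many sites were missing from 1 to 6 of the Model and Control lists. The SYD bars stand at 356 by the rule, Model 2 is lowest at 178, and 217 sites were missing from a single list.

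Model replicate 2 lacked the most member sites. The Model lists lacked 91, 178 and 75 of them in replicates 1, 2 and 3, and the Control lists lacked 76, 108 and 67. The mean was 115 ± 55.4 sites in the Model group and 83.7 ± 21.5 in the Control group (SD, n = 3 each), so the groups overlapped, and this difference was not tested. Model replicate 2 also had the shortest list outside the SYD group, with 2883 peaks. Control replicate 2, with the next shortest list (3629 peaks), lacked the next most. The 4 longer lists, of 4187 to 5556 peaks, lacked 67 to 91, and within these the longest, that of Control replicate 1, did not lack the fewest. Among the 217 sites missing from 1 list, 85 were missing from Model replicate 2, 37 from Control replicate 2, 32 from Model replicate 1, 25 from Control replicate 1, 20 from Model replicate 3 and 18 from Control replicate 3. Without Model replicate 2, 271 member sites remained.

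Seen by group, 158 member sites were held by all Control lists but not all Model lists, 87 by all Model lists but not all Control lists, and 111 were incomplete in both. More Control than Model lists held 187 sites, more Model than Control lists held 110, and 59 were held by equal numbers. A single-library gap cannot be read as a group difference, and 137 of the 158 sites complete in Control were missing from only 1 Model list. Of the 87 sites complete in Model, 80 were missing from only 1 Control list. For comparison, sites in 8 lists that lacked only 1 SYD list numbered 118, 95 and 105 for SYD replicates 1, 2 and 3.

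The genes of member sites kept another peak in some of the lists that lacked the site, a share that was not taken for other sites. There were 595 pairs of a member site and a list without it, 344 in Model and 251 in Control lists. In 302 of these pairs (50.8%) the same list held another peak in the same gene, but in only 29 did this peak lie within 1000 bases. By list, the share with another peak in the gene was 39.6%, 47.8% and 60.0% in Model replicates 1, 2 and 3, and 56.6%, 52.8% and 53.7% in Control replicates 1, 2 and 3. Member genes held a median of 2 sites each, as did genes with a site in all 9 lists, against 1 over all genes with a site. Of the 331 member genes, 70 (21.1%) also had a site present in all 9 lists, beside 15.3% of all genes with a site.

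The member sites ranked in the middle of the SYD lists. A score percentile was taken within each list, with 100 at the strongest peak. The median over member sites was 50.3, 51.9 and 49.7 in SYD replicates 1, 2 and 3, against 64.9, 55.6 and 65.4 in Model replicates 1, 2 and 3 and 70.1, 61.9 and 63.4 in Control replicates 1, 2 and 3 for the sites those lists held. Averaged over lists it was 50.6 ± 1.12 in the SYD group, 62.0 ± 5.50 in the Model group and 65.2 ± 4.34 in the Control group (SD, n = 3 lists each). All 3 SYD values lay below every Model and Control value. A percentile depends on how many weaker peaks a list holds, and the SYD lists were the shortest. The part of list length in these ranks was not tested. The 917 sites in all 9 lists stood higher throughout, with medians of 75.2 to 78.2 in SYD, 80.7 to 85.3 in Model and 83.3 to 86.9 in Control lists, so the lower rank in the SYD lists was shared by those sites. A site's median percentile was higher in the SYD lists than in the other lists that held it for 96 of the 356 member sites (27.0%) and for 184 of the 917 shared sites (20.1%).

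**Figure D2:**
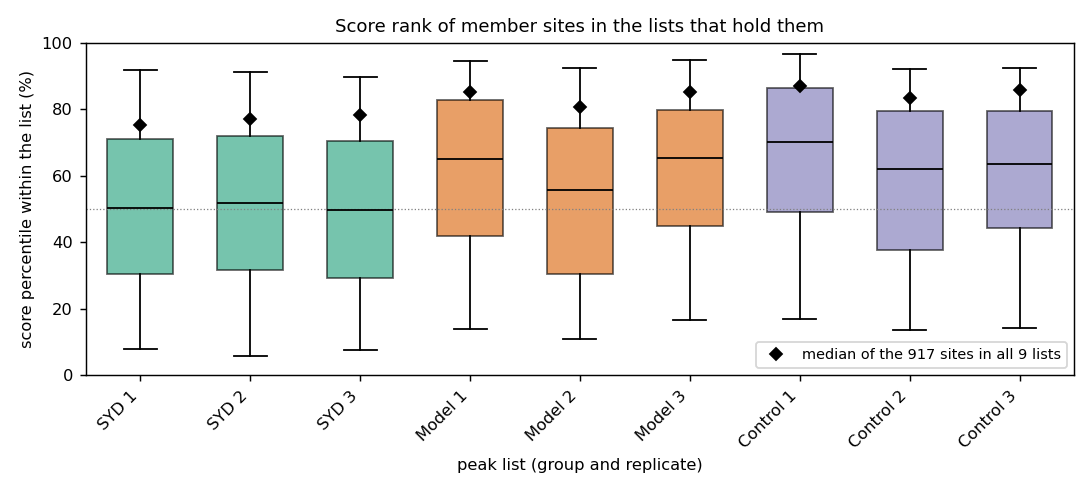
Boxes give the score percentile of member sites within each list that held them (line, median; box, quartiles; whiskers, 5th to 95th percentile), and diamonds give the median of the 917 sites in all 9 lists. Member medians lie near 50 in the SYD lists and between 55.6 and 70.1 in the Model and Control lists, under the diamond in every list.

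Many member sites passed the caller's threshold narrowly in at least 1 SYD library. The lowest of a site's 3 SYD scores had a median of 29.4 (quartiles 23.9 and 41.7) over member sites, against 54.5 (quartiles 32.0 and 106) over the sites in all 9 lists. It was under 25 for 109 member sites (30.6%) and for 95 shared sites (10.4%), and 100 or more for 18 member sites (5.06%) and 241 shared sites (26.3%). Sites missing from more lists were weaker in the SYD lists too. The median lowest SYD score was 32.9 for sites missing from 1 list, 27.9 for 2, 26.3 for 3, 25.5 for 4 and 24.8 for 5.

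Fold enrichment was also lower at member sites than at shared sites in every list. Relative to the median fold of its own list, the median member peak stood at 1.01, 0.984 and 0.962 times that median in SYD replicates 1, 2 and 3, at 1.09, 0.994 and 1.07 times in Model replicates 1, 2 and 3, and at 1.25, 1.08 and 1.09 times in Control replicates 1, 2 and 3. The sites in all 9 lists stood at 1.25 to 1.34 times in SYD, 1.31 to 1.58 times in Model and 1.45 to 1.72 times in Control lists.

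Nearest the score floor of 20, the weakest member sites lay in Xylt2, a xylosyltransferase that starts glycosaminoglycan chains, in Papd7, a poly(A) polymerase, and in Samd8. Xylt2 (chr10:82399347-82399485, build rn6) scored 21.9, 28.0 and 20.01 in the SYD lists and was missing from Control replicate 1. Papd7 (chr1:36400443-36400617) had a lowest SYD score of 20.11 and was missing from Model replicate 2, and Samd8 (chr15:2730848-2731114) had one of 20.22 and was missing from Model replicates 1 and 2. Just outside the rule, sites in Gpank1 (20.12 in Control replicate 2), LOC100910929 (20.23 in Model replicate 1) and Cttn, the actin-binding protein cortactin (20.33 in Model replicate 1), were present in all 9 lists. Of the 917 shared sites, 67 had a lowest Model or Control score under 25.

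The strongest member site lay in Myh9, which encodes a non-muscle myosin II heavy chain (chr7:118750674-118750886). It scored 3100.0, 3100.0 and 1774 in the SYD lists, 2112 and 3100.0 in Model replicates 2 and 3 and 3100.0 in each Control list, and had no peak in Model replicate 1. A second Myh9 site (chr7:118744759-118744887) scored 304, 521 and 208 in the SYD lists, 676 and 954 in Model replicates 2 and 3 and 1027 in Control replicate 1, and was missing from the others. Myh9l1, whose name marks it as a near copy of Myh9, held a site of the same length (213 bases) missing from the same list, with scores of 3115, 3184 and 867 in the SYD lists. Whether reads of the Myh9 and Myh9l1 copies were kept apart is not given in the sources used here, so these values are uncertain.

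The other member sites that scored high in all 3 SYD lists lay in genes of varied function. Os9 encodes a lectin of the endoplasmic reticulum that helps dispose of misfolded glycoproteins. Its site (chr7:70382897-70383172) scored 449, 565 and 709 in the SYD lists, 2299 and 1503 in Model replicates 1 and 3 and 1601 and 459 in Control replicates 1 and 3. Nr2f2 (COUP-TFII), a nuclear receptor needed for the atria and veins to form in the mouse, scored 338, 426 and 511 in the SYD lists, 783 to 1361 in the 3 Model lists and 817 and 2382 in the 2 Control lists that held it. Both sites therefore scored higher in most Model and Control lists that held them than in any SYD list. Fold enrichment ran the other way, and at both sites every SYD list had a higher fold than every Model and Control list. The site of Hdac5 (chr10:90146657-90146935), a class II histone deacetylase that restrains hypertrophic transcription through MEF2, had nearly equal SYD scores of 233, 232 and 228, with 236 and 357 in Model replicates 2 and 3 and 456, 182 and 354 in the Control lists.

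Among the remaining sites of this kind, Tpm4, a tropomyosin of actin filaments, scored 257, 205 and 452 in the SYD lists, 594 to 1731 in the Model lists and 1781 and 1389 in Control replicates 2 and 3. Myo18a, an unconventional myosin, scored 165, 301 and 146 in the SYD lists, 580.2 and 613 in Model replicates 1 and 3 and 769 in Control replicate 1, and was missing from the other lists. Med12, a subunit of the Mediator complex, scored 139, 164 and 158 in the SYD lists, 314 in Model replicate 2 and 481 to 796 in the Control lists. LOC690126, annotated as a hypothetical protein, scored 181, 275 and 719 in the SYD lists, 97.0 in Model replicate 2 and 352 to 1612 in the Control lists, and was missing from Model replicates 1 and 3. Model replicate 1 lacked 6 of the 10 highest ranked member sites (those of LOC690126, Med12, Hdac5 and Myh9l1 and both of Myh9).

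Sites held by no library of one group were few. Of the 9022 sites, 9 (0.0998%) were in all SYD lists and no Model list, while 149 (1.65%) were in all Model lists and no SYD list. Likewise 9 (0.0998%) were in all SYD lists and no Control list, while 277 (3.07%) were in all Control lists and no SYD list. For 17 of these 18 member sites the lowest SYD score was under 50, as it was for 288 of all 356 member sites (80.9%). With lists cut to equal length the counts of member sites were 30 for no Model peak and 28 for no Control peak. The reverse counts of 149 and 277 were not taken at equal length. The SYD lists were the shortest, and the part of list length in these differences was not tested. Leaving out 1 library moved the counts of member sites to between 9 and 51 and between 9 and 35.

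The 9 sites with no Model peak lay in Tgfbr2, Ipo13, Impad1, Fads2, Col4a2, Lamc1, Rin3, LOC100294508 and Snx4. Tgfbr2, the type II receptor that binds TGF-β, had the strongest of them (chr8:124398520-124399241), with scores of 101, 48.1 and 58.5 in the SYD lists and 30.4, 113 and 94.6 in the Control lists. The SYD and Control scores overlapped. All 3 Model lists held a peak elsewhere in Tgfbr2, as 1, 1 and 2 sites in replicates 1, 2 and 3.

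Extracellular matrix genes gave 2 of these 9 sites. Col4a2, a chain of basement membrane collagen IV, had a site (chr16:83438427-83438561) with scores of 57.9, 28.1 and 26.1 in the SYD lists and 37.2 and 45.8 in Control replicates 2 and 3. Lamc1, the laminin γ1 chain of the same membranes, had one (chr13:70782857-70783515) with scores of 21.6, 37.3 and 41.9 in the SYD lists and 49.4 and 76.0 in Control replicates 2 and 3. Both genes kept other peaks in every list that lacked these sites. Col4a1, the partner chain of Col4a2, had a member site (chr16:83597385-83597549) that scored 60.7, 34.8 and 30.9 in the SYD lists, 36.3 in Model replicate 3 and 149 and 50.0 in Control replicates 2 and 3.

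Fads2, the Δ6 desaturase of polyunsaturated fatty acid synthesis, held 1 site in all (chr1:226152196-226152524), with scores of 49.1, 28.0 and 118 in the SYD lists and 34.1, 56.7 and 99.4 in the Control lists. Snx4, a sorting nexin of endosomal recycling, also held 1 site (chr11:70753472-70753632), with 33.2, 20.9 and 38.2 in the SYD lists and 21.6, 24.0 and 31.6 in the Control lists. In neither gene did a Model list hold any peak, and the SYD and Control scores overlapped. Ipo13, a nuclear transport receptor, scored 46.2, 28.8 and 34.2 in the SYD lists and 78.9, 101 and 37.9 in the Control lists. No Model list held any peak in Ipo13 either.

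The last 3 sites of this group were held by 1 or 2 Control lists. Impad1, a phosphatase of the Golgi, scored 34.7, 28.4 and 28.8 in the SYD lists and 109 in Control replicate 2. Rin3, an exchange factor for the endosomal GTPase Rab5, scored 27.5, 23.8 and 21.3 in the SYD lists and 25.3 in Control replicate 3. LOC100294508, annotated as similar to a dyslexia susceptibility protein, scored 24.6, 21.3 and 24.6 in the SYD lists and 54.3 and 21.0 in Control replicates 1 and 3. No Model list held any peak in LOC100294508. All SYD scores of these sites were below 35, near the floor.

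**Figure D3:**
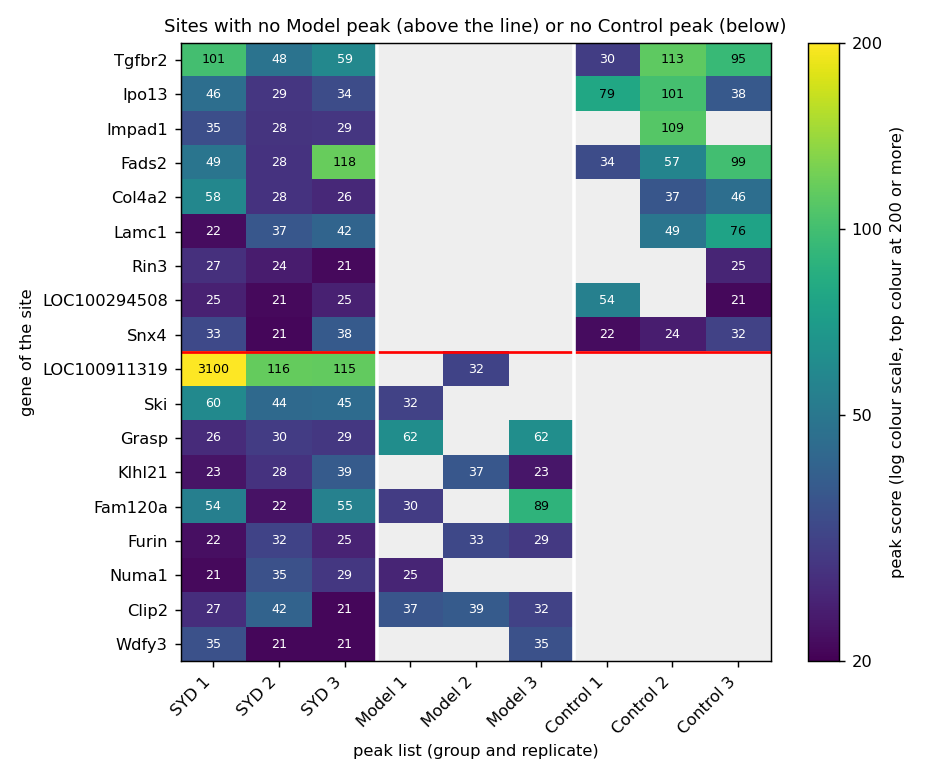
Each row is a member site named by its gene and each column a list, with the score printed in the cell and grey where there was no peak; rows above the red line had no Model peak and rows below it no Control peak. LOC100911319 in SYD 1 (3100.0) stands far above the rest, and most other SYD scores lie under 60.

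The 9 sites with no Control peak lay in LOC100911319, Ski, Grasp, Klhl21, Fam120a, Furin, Numa1, Clip2 and Wdfy3. LOC100911319 is annotated as similar to ZFP36L2, whose family binds AU-rich elements and speeds decay of the RNA that carries them. Its only site (chr7:2351933-2353330) scored 3100.0, 116 and 115 in SYD replicates 1, 2 and 3 and 31.8 in Model replicate 2. Fold enrichment there was 271, 15.8 and 24.9 in the SYD lists and 7.48 in Model replicate 2, so 1 SYD library stood far above the other two. The locus resembles another gene by its annotation, and reads could be shared with it.

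Ski, a co-repressor that binds SMAD proteins and limits TGF-β signaling, had a member site (chr5:172561573-172561865) with scores of 59.6, 44.0 and 44.7 in the SYD lists and 31.5 in Model replicate 1. A second Ski site, 971 bases long (chr5:172622929-172623899), was present in all 9 lists. It scored 268, 316 and 553 in the SYD lists, 1369, 996 and 1268 in the Model lists and 1453, 836 and 1023 in the Control lists. At this second site every SYD score was below every Model and Control score. The member site was chosen by the rule for its SYD peaks, so its scores are not compared with these. Scores at shared sites were lower in the SYD lists in general, with medians over the 917 sites of 79.7 to 96.2 in SYD, 130 to 209 in Model and 164 to 299 in Control lists.

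Clip2, a linker of membranes to microtubules, was the 1 member site held by all SYD and all Model lists and by no Control list (chr12:25208853-25209050). It scored 27.0, 41.6 and 20.9 in the SYD lists and 36.7, 38.7 and 31.6 in the Model lists. These ranges overlap, and each Control list held between 3 and 9 other sites in Clip2.

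Grasp, a scaffold protein of receptor trafficking, scored 26.5, 30.2 and 29.2 in the SYD lists and 61.8 and 62.3 in Model replicates 1 and 3. Fam120a, an RNA-binding scaffold, scored 53.8, 22.4 and 55.2 in the SYD lists and 30.2 and 89.4 in Model replicates 1 and 3. Furin, the protease that matures many secreted precursors, among them TGF-β1, scored 21.9, 31.7 and 25.2 in the SYD lists and 33.1 and 29.2 in Model replicates 2 and 3. In Grasp and in Fam120a the highest score was in a Model list, as it was in Furin. Fold enrichment at each of these sites was higher in every SYD list than in any Model list.

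Klhl21, an adaptor of a ubiquitin ligase built on cullin 3, scored 22.6, 28.0 and 38.6 in the SYD lists and 37.5 and 23.0 in Model replicates 2 and 3. Numa1, a protein of the mitotic spindle poles, scored 21.2, 35.4 and 29.2 in the SYD lists and 25.4 in Model replicate 1. Wdfy3, which links protein aggregates to the autophagy machinery, scored 35.3, 20.9 and 20.9 in the SYD lists and 35.3 in Model replicate 3. Over all 18 of these one-sided sites, 7 genes kept another peak in every list that lacked the site, 6 had none in any such list, and 3 genes held no other site at all.

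A further set of sites was missing from 4 lists without being absent from a whole group. RGD1311899 scored 56.2, 39.7 and 86.3 in the SYD lists, 162 in Model replicate 1 and 116 in Control replicate 1. Trim3, a ubiquitin ligase, scored 48.1, 39.2 and 41.8 in the SYD lists, 47.1 in Model replicate 3 and 50.0 in Control replicate 3. Prdm8, a transcriptional regulator of the PR domain family, scored 54.3, 201 and 26.2 in the SYD lists, 153 in Model replicate 3 and 32.2 in Control replicate 2. Mcrip1, a partner of the CtBP co-repressor, scored 55.7, 43.3 and 31.8 in the SYD lists, 56.9 in Model replicate 2 and 64.0 in Control replicate 3. In RGD1311899 and Mcrip1 the few Model and Control scores were above all 3 SYD scores, and in Trim3 and Prdm8 the scores overlapped. Fold enrichment in RGD1311899 and Mcrip1 was instead higher in every SYD list.

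Few genes held more than 1 member site. Of the 331 genes, 18 held 2 or more member sites, which took up 43 sites, and 4 of these genes held 3 or more. Col5a1, a chain of the fibrillar collagen V, held the most, with 6 member sites among 28 sites, 7 of them in all 9 lists. Each of the 6 was missing from 1 or 2 lists, and Control replicate 2 lacked 3 of them, Model replicate 2 lacked 2, and Control replicates 1 and 3 lacked 1 each. Their SYD scores ran from 21.2 to 181. Of these 6 sites, 5 were 54, 90 or 108 bases long. The numbers of Col5a1 sites per list were 17, 19 and 17 in the SYD lists, 16, 17 and 21 in the Model lists and 15, 17 and 23 in the Control lists, so the groups overlapped.

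**Figure D4:**
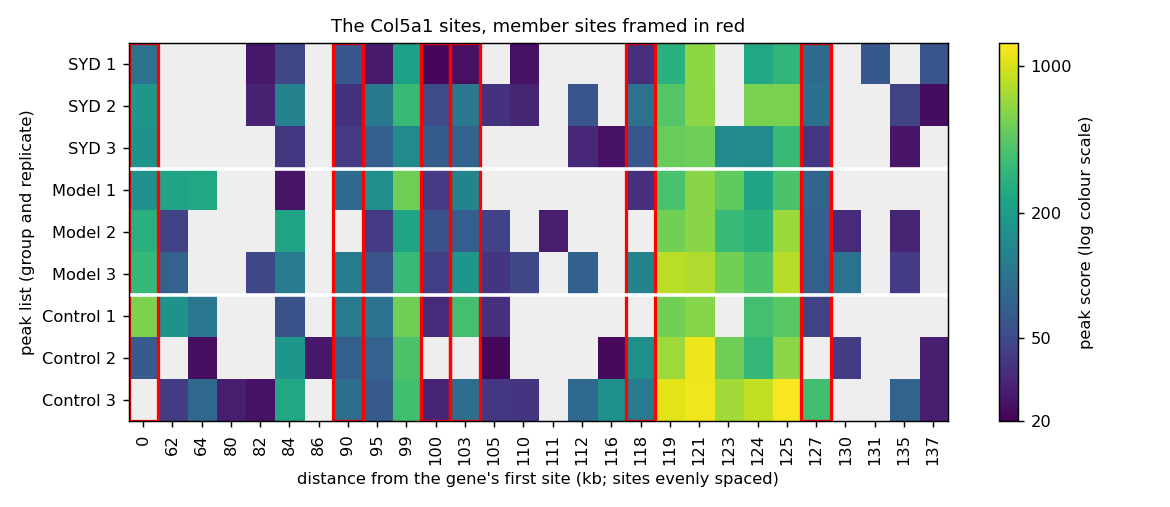
Columns are the 28 Col5a1 sites in order along the gene, labelled by distance from the first site in kb, rows are the 9 lists, colour gives the score on a log scale and grey marks no peak. The 6 member sites, framed in red, each have 1 or 2 grey cells. The strongest block of sites, 119 to 125 kb from the first, is held by all 9 lists except for the site at 123 kb, held by 6.

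Bag3, a chaperone partner that maintains the Z-disc of muscle, held 3 member sites among 4, with SYD scores between 34.8 and 82.4. Model replicates 1, 2 and 3 lacked 1 each, and Control replicate 1 lacked 1. Rrbp1, a ribosome-binding protein of the endoplasmic reticulum, held 3 among 12, of which 2 were missing from Model replicate 1 and 1 from Model replicate 2. Myo18a held 3 among 10, all missing from Model replicate 2. Sparc, a secreted collagen-binding protein, held 2 among 4. Both Sparc sites were missing from Model replicate 1 and 1 also from Model replicate 3, with SYD scores of 143, 187 and 37.7 at one and 193, 455 and 81.0 at the other.

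Tnnt2, cardiac troponin T of the thin filament, held 2 member sites among 7. One (chr13:52676024-52676140) scored 80.2, 177 and 164 in the SYD lists, 131 and 49.5 in Model replicates 1 and 2 and 1826, 286 and 734 in the Control lists. The other (chr13:52673635-52673721) scored 33.8, 119 and 143 in the SYD lists, 195 in Model replicate 1 and 946 and 194 in Control replicates 1 and 3. Every Control score at the first site was above every SYD and Model score. Fold enrichment there was higher in every SYD list than in any Model or Control list. Os9, Adgra2 and LOC100909750, annotated as similar to the kinase ABL1, also held 2 member sites each. Abl1 itself held a member site, missing from Control replicate 2 as both LOC100909750 sites were. Nudc and LOC100911422, annotated as similar to it, held sites of 315 bases, each missing from Control replicate 3 and with a score of 121 in SYD replicate 2. Such copies are counted as separate sites and genes here, and whether their reads were kept apart is not given.

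Of the 19 lists of genes, 18 held at least 1 member gene. They name 1272 genes, of which 685 had a site and 72 (10.5%) had a member site, against 6.83% of all genes with a site. A gene with many sites can more easily hold one, so shares of sites are given next, beside 3.95% of all sites. TGF-β and BMP signaling, which drives fibroblast activation and matrix production in the heart, had 6 member sites among 55 (10.9%), in Ltbp3, Ski, Smad1, Tgfb1, Tgfbr2 and Zeb1. Of these, Ltbp3 (latent TGF-β binding), Tgfb1 (the ligand) and Smad1 and Zeb1 (transcription factors) were each missing from 1 or 2 lists. Tgfb1 scored 35.3, 31.2 and 71.5 in the SYD lists, 150.5 and 89.8 in Model replicates 1 and 3 and 104.5, 29.5 and 66.9 in the Control lists.

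**Figure D5:**
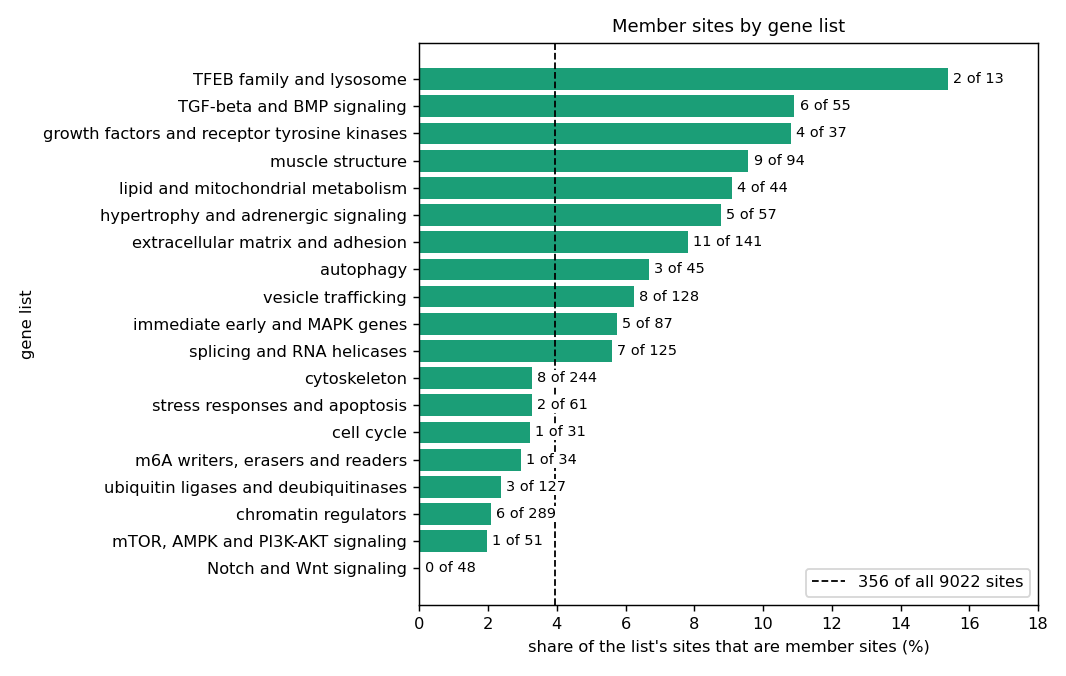
Bars give the share of each gene list's sites that were member sites, with the counts printed, and the dashed line marks the share over all 9022 sites (3.95%). Shares run from 0 of 48 sites for Notch and Wnt signaling to 2 of 13 for TFEB family and lysosome, and the counts behind them are small.

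Muscle structure, a list that also holds the non-muscle myosin gene Myh9, had 9 member sites among 94 (9.57%). They included sites in Actn1, Myh9, Pdlim7, Smtn, Tnnt2 and Tpm4. Of the sites in this gene list, 20.2% were in all 9 lists, against 10.2% of all sites. Actn1, a crosslinker of actin filaments, scored 125, 313 and 348 in the SYD lists, 932 and 147 in Model replicates 1 and 3 and 1116, 201 and 657 in the Control lists. Model replicate 2 was the list that lacked the Actn1 site, and also that of Pdlim7. The site of Nkx2-5, a cardiac transcription factor, was likewise missing from Model replicate 2 and scored 41.0, 23.7 and 37.6 in the SYD lists, 117 and 53.6 in the other Model lists and 61.9, 44.0 and 51.8 in the Control lists.

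Extracellular matrix and adhesion had 11 member sites among 141 (7.80%), in Col4a1, Col4a2, Col5a1, Lamc1 and Sparc. Growth factors and receptor tyrosine kinases had 4 among 37 (10.8%), in Pdgfa, Vegfa, Efnb2 and Ephb4. Each was missing from 1 list, which was a Model list in all 4. Of all 217 member sites missing from 1 list, 137 likewise lacked a Model list. Vegfa, the angiogenic growth factor, scored 56.5, 29.4 and 93.2 in the SYD lists, 396 and 367 in Model replicates 1 and 3 and 320.5, 50.1 and 172 in the Control lists. Lipid and mitochondrial metabolism had 4 among 44 (9.09%), in Fads2, Pprc1 and Hk1 (hexokinase 1, with 2 sites). Sites in all 9 lists made up 14.9% of the matrix sites, 5.41% of the growth factor sites and 2.27% of the lipid sites, against 10.2% of all sites.

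Hypertrophy and adrenergic signaling had 5 among 57 (8.77%), in the G protein subunits Gna13 and Gnas, Hdac5, the transcription factor Srf and Nfatc4, a target of calcineurin. Of the sites in this gene list, 15.8% were in all 9 lists, against 10.2% of all sites. Gna13 was missing from Model replicate 1, and scored 82.7, 121 and 53.6 in the SYD lists, 111 in each of the other Model lists and 154, 177 and 57.9 in the Control lists. Srf was missing from 3 lists and scored 59.2, 26.7 and 49.8 in the SYD lists, 43.9 and 29.0 in Model replicates 1 and 3 and 38.4 in Control replicate 3. Its SYD, Model and Control scores overlapped.

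Autophagy, the study's process of interest, had 3 member sites among 45 (6.67%), in Ambra1, Optn and Wdfy3. The TFEB family and lysosome had 2 among 13 (15.4%), in Lamp1 and Mcoln1, and 0 of its sites were in all 9 lists. Lamp1, a protein of the lysosome membrane, scored 175.5, 87.0 and 174 in the SYD lists, 70.6 and 320 in Model replicates 2 and 3 and 76.3, 133 and 119 in the Control lists. Mcoln1, the lysosomal calcium channel, was missing from Control replicate 1 and scored 23.8, 50.7 and 42.7 in the SYD lists, 77.4, 117 and 101 in the Model lists and 28.0 and 40.8 in the other Control lists. Its 3 Model scores lay above all its SYD and Control scores, but its fold enrichment was highest in the SYD lists. The folds were 50.0, 45.9 and 58.9 in SYD, 22.5, 16.8 and 20.9 in Model and 11.2 and 15.8 in those Control lists. Median folds of whole lists were also highest in the SYD group. Optn, a receptor of selective autophagy, was missing from Control replicate 2 and scored 54.3, 30.6 and 29.8 in the SYD lists. Ambra1, a regulator of the start of autophagy, was missing from the same list. Mettl3, Sqstm1 and Becn1 had no site in any list, Mtor had 5 sites and Tfeb 2 with no member, and Map1lc3b had 1 site in all 9 lists and 1 in a single list.

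Signaling through mTOR, AMPK and PI3K-AKT had 1 member site among 51 (1.96%), in Rragc, a Rag GTPase that brings mTORC1 to the lysosome, which scored 89.3, 61.8 and 38.5 in the SYD lists and was missing from Model replicate 1. The m6A writers, erasers and readers had 1 among 34 (2.94%), in Rbm15, an adaptor of the METTL3 complex, which scored 107, 40.5 and 21.9 in the SYD lists, 106 in Model replicate 1 and 558 and 134 in Control replicates 1 and 3. Of the 34 sites of that list, 10 were present in all 9 lists (29.4%). Chromatin regulators, the list with the most sites, had 6 member sites among 289 (2.08%), among them sites in Brpf1, Chd3, Dnmt3a, Dot1l and Hdac5. Notch and Wnt signaling had 0 among 48, while 8 of its sites were in all 9 lists.

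The other lists gave shares on both sides of 3.95%. Vesicle trafficking had 8 member sites among 128 (6.25%), immediate early and MAPK genes 5 among 87 (5.75%), splicing and RNA helicases 7 among 125 (5.60%), the cytoskeleton 8 among 244 (3.28%), stress responses and apoptosis 2 among 61 (3.28%), the cell cycle 1 among 31 (3.23%) and ubiquitin ligases and deubiquitinases 3 among 127 (2.36%). Vesicle genes included the sorting nexins Snx4, Snx18 and Snx27, the GTPase dynamin 2 (Dnm2) and the adaptor subunit Ap2a2. Dhx36, a helicase that unwinds G-quadruplexes, scored 41.5, 87.2 and 96.0 in the SYD lists, 279 and 188 in Model replicates 1 and 3 and 212, 112 and 116 in the Control lists. Fosl1, an AP-1 subunit, was among the weakest, with 21.3, 21.7 and 27.7 in the SYD lists, 25.7 and 36.2 in Model replicates 2 and 3 and 29.2, 36.1 and 107 in the Control lists.

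In the annotation that came with the lists, the shares of genes with the commonest terms differed between member genes and all genes in both directions. Of the 293 member genes with a cell component term, 46.1% were annotated to the cytoplasm and 42.3% to the nucleus, against 39.2% and 39.1% of all 4197 annotated genes, while 44.2% and 46.2% of genes with a site in all 9 lists had them. Metabolic pathways, the commonest pathway entry, was named for 12 of 121 member genes with a pathway (9.92%), 7.72% of genes with a site in all 9 lists and 13.8% of all. The endocytosis pathway was named for 14 of these member genes (11.6%), 5.41% of genes with a site in all 9 lists and 6.70% of all. The PI3K-Akt pathway was named for 13 (10.7%), 6.56% and 6.02%, a pathway that includes matrix proteins such as collagen IV and laminin. No test was made of these shares.

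Member sites had a median length of 330 bases (quartiles 174.5 and 676), near that of the sites in all 9 lists (316 bases) and above that of all sites (245 bases). The shortest member site spanned 44 bases and the longest 3545. The boundaries of a site were identical in every list that held it for 272 of the 356 member sites (76.4%), for 84.8% of the sites in all 9 lists and for 77.3% of the sites in 2 or more lists. The length of a site in the files thus tells little of the width of the signal.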

How the data were processed

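The authors sequenced 18 samples of H9c2 cells, an IP and an input for each of 3 replicates in the SYD, Model and Control groups. Per the labels and the methods, reads were trimmed with cutadapt 1.9.3 and aligned with HISAT2 2.0.4 to rn6, peaks were called per replicate with MACS, and peaks on mRNA were kept and annotated by the authors' own programs. They deposited 9 peak lists, each of 1 replicate, that hold 32961 peaks together. The deposited score is the negative log10 p multiplied by 10, the deposited fold enrichment is the ratio of IP to input, and the FDR, deposited as a percent, was 100 throughout and was not used. The lists do not give library depth, and counting errors are therefore not stated.

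Peaks were joined over the 9 lists where they overlapped by at least 1 base, and a site's value in a list is that of its strongest peak. The joining was checked on simulated data. Start positions were turned to count from 1. Score percentiles were taken within a list. The members and the lists of genes were chosen with earlier results of these data known, and nothing was tested. The sites named are those missing from all lists of a group, the 10 with the highest lowest SYD score, the 10 strongest missing from at least 4 lists, up to 10 genes with 2 or more member sites, examples from the gene lists, 6 genes of the study, and the 3 nearest the floor. Some genes that this takes in are not reported here. The Nkx2-5 site was named as a cell type marker. Alternatives were lists cut to equal length (2508 peaks), a score of at least 50 in each list, an overlap of 50% of the shorter peak, joining peaks up to 100 bases apart, genes in place of sites, fold in place of score, and leaving out each library. Transcript regions and sequence motifs were not analysed here. Python 3.11.15, numpy 2.4.6, pandas 2.3.3 and matplotlib 3.10.9 were used.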

Additional observations from a re-analysis of the deposited data

How the results depend on the processing

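With a score of at least 50 in every list, member sites fell to 116 in 113 genes, of which 61 were missing from 1 list, 2 had no Model peak (Iqgap1 and LOC100911319, named after their values were seen) and 2 had no Control peak (Fam63b, likewise, and LOC100911319), with a median SYD percentile of 53.4. Of the 356 sites, 68 were among them, which are those with a score of at least 50 in every SYD list. With lists of equal length, 30 sites had no Model peak and 28 no Control peak, including 6 and 7 of the 9 each, and 315 of the 356 sites were again member sites. Ranked by fold, the median SYD percentile was 48.2 in place of 50.8. For genes in place of sites, 219 genes met the rule, of which 138 were missing from 1 list, 7 from all Model lists and 5 from all Control lists. An overlap of 50% of the shorter peak, or joining peaks up to 100 bases apart, left all 356 sites in place.

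Leaving out 1 library in turn gave 271 to 629 member sites in 253 to 558 genes, 174 to 298 missing from 1 list, 9 to 51 with no Model peak and 9 to 35 with no Control peak, and a median SYD percentile of 45.3 to 50.8. The site count was 629, 591 and 567 without SYD replicates 1, 2 and 3, where the rule asks for fewer lists, and 271 without Model replicate 2. Sites with no Model peak numbered 51, 31 and 35 without SYD replicates 1, 2 and 3 and 37, 22 and 25 without Model replicates 1, 2 and 3. Those with no Control peak numbered 35, 26 and 30 without SYD replicates 1, 2 and 3 and 25, 17 and 20 without Control replicates 1, 2 and 3.

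No paired analysis was possible because none of the results comes from a test and there was no fit to add the replicate number to. Scores near the floor of 20 and unknown depth limit what a missing peak says, and a site absent from 1 list cannot be told from one that was called narrowly below the threshold there.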
